A study of Mus musculus with 3 samples.

Results

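The transcription factor Atf4, 2 factors that act with or after it and 7 genes it is known to induce were followed in mouse peritoneal macrophages exposed to hexavalent chromium. The 10 genes are Atf4, Atf3, Ddit3, Chac1, Trib3, Asns, Sesn2, Psat1, Phgdh and Slc7a11. Their probes were taken by gene name, 17 of the 41174 on the array, and 14561 genes in all were above background on at least 1 array. The genes were chosen by their scaled levels on these same arrays, which had shown Chac1, Trib3 and Asns high at the lower dose, so all values of the 10 genes are a description and carry no test.

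All animals were male Swiss albino mice aged 8 weeks, randomised into groups of 10. Every mouse, controls included, was given 125 µg lipopolysaccharide in the peritoneum on day 0 to recruit macrophages. On day 4 the control group was injected with 100 ng of the phorbol ester TPA (12-O-tetradecanoylphorbol-13-acetate) alone, and the other groups with the same TPA plus 35 or 70 nmol of chromate. The protocols give these doses as potassium dichromate and the sample labels as Cr(VI). Macrophages were washed from the peritoneum 4 days after the chromate, which is the only time point. The yield was freed of red blood cells. There was 1 array per group, and the 3 arrays share a slide, so group and slide position cannot be told apart. Every difference below lacks a replicate check, and the labels do not say how many animals contributed to the RNA of an array.

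The integrated stress response couples stress to gene expression through the initiation factor eIF2. Kinases that sense amino acid shortage, misfolded protein in the endoplasmic reticulum, heme shortage or viral RNA phosphorylate its alpha subunit, which lowers protein synthesis in general but favours translation of Atf4. Atf4 then binds with C/EBP partners to composite elements in genes for amino acid uptake and synthesis, for redox balance and for the ending of the response itself. Because Atf4 is controlled largely at translation, its transcript level is an indirect measure of its activity. In macrophages these genes are known to respond to activation and to cystine and serine supply.

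Levels are log2 processed intensity minus the 75th percentile of the same array, and a difference of 1 on this scale is 2-fold. The error beside a difference is the scanner software's own error, which leaves out all spread between animals. A gene counts as measured in a comparison if its brightest probe exceeded background clearly, by the scanner software, on each of the arrays and was not saturated. Between 45.1% and 49.1% of probes were well above background per array. The median SD between spots printed in repeat was 0.035 to 0.045, and the median gap between 2 probes of a gene was 0.13 to 0.16 in the differences. Scaling on spike-in RNA in place of the 75th percentile shifted all differences from the control downward, their median by -0.42 at 35 nmol and by -0.36 at 70 nmol, and turned the share of higher genes among those 2-fold different from 79.0% to 22.05% at 35 nmol and from 60% to 17.9% at 70 nmol.

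At 35 nmol, 3 of the 9 measured genes of the set were at least 2-fold higher than in the control: Chac1, Trib3 and Asns, by 2.73-fold, 2.29-fold and 2.20-fold. None was at least 2-fold lower. Among all 12733 genes measured there, 1.12% lay 2-fold or more above the control and 0.298% as far below it, 1.42% in either direction. Since the set was drawn up with these values known, its count against that share is given as a description. At 70 nmol the same genes lay above the control by less, and none of the 9 reached 2-fold. The other 6 measured genes differed by between -0.02 and 0.35 at 35 nmol.

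**Figure D1:**
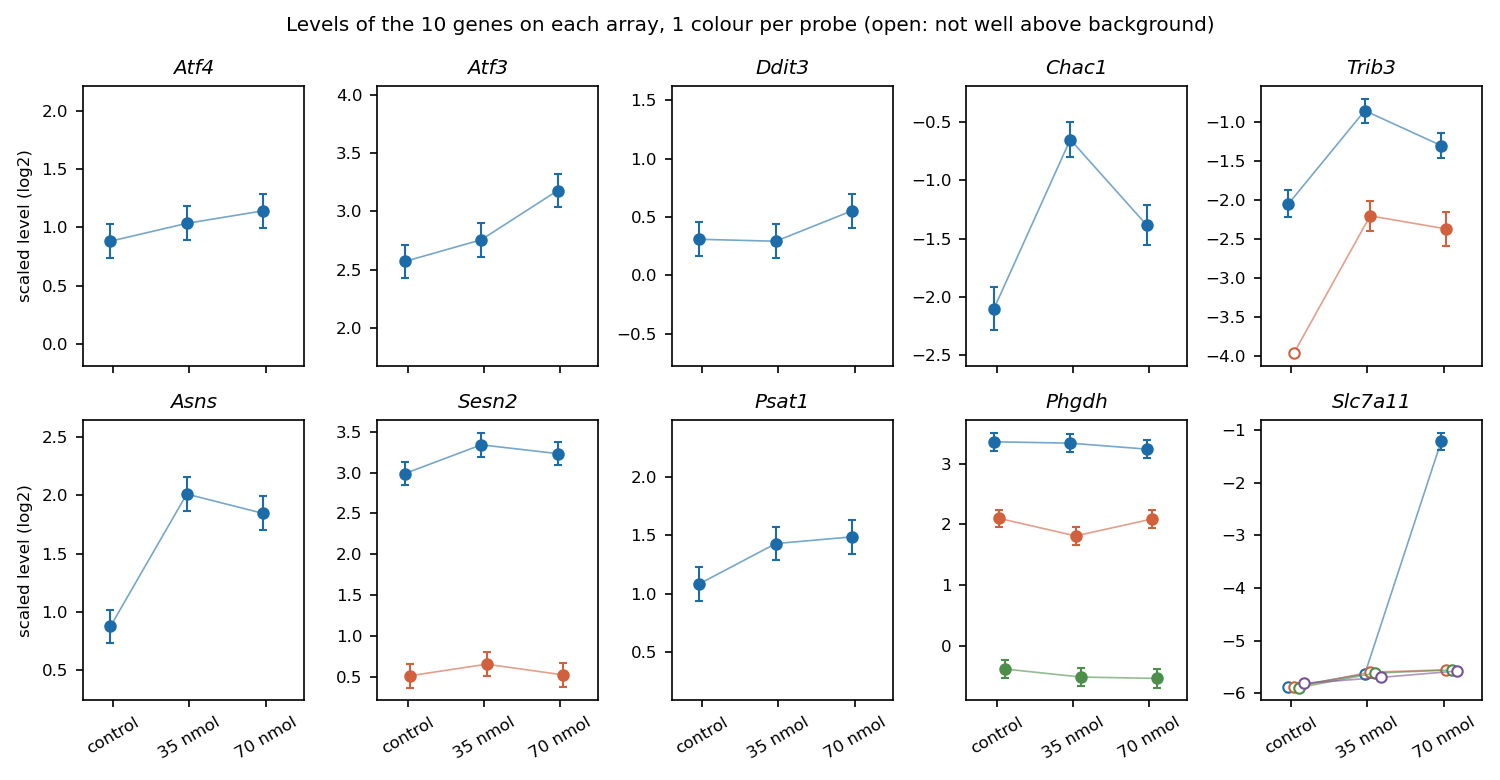
Scaled level (log2) of every probe of the 10 genes on the control, 35 nmol and 70 nmol arrays, with the scanner error as bars; each colour is a probe, each panel has its own range, and open points were not well above background. Chac1, Trib3 and Asns are lowest on the control array and highest at 35 nmol, whereas 3 of the 4 Slc7a11 probes stay at background on all arrays.

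Among the 9 measured genes, Chac1 showed the largest difference at 35 nmol by its brightest probe. It encodes an enzyme that breaks down glutathione in the cytosol and is a late and steep target of Atf4. Its probe, on chromosome 2 from 119045695 to 119045754 (mm8, plus strand), gave a processed intensity of 62.7 in the control, 131 at 35 nmol and 82.1 at 70 nmol. The scaled levels were -2.10, -0.65 and -1.38. Chac1 was thus lowest in the control and highest at the lower dose, with 70 nmol between them. The differences from the control were 1.45 ± 0.24 (scanner error) at 35 nmol and 0.72 ± 0.25 at 70 nmol. From 35 to 70 nmol the level differed by -0.73 ± 0.23. At 35 nmol Chac1 held rank 67 from the top among 12733 measured genes, and at 70 nmol rank 451 of 12541.

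Trib3, a pseudokinase that binds Atf4 and the kinase Akt and restrains both, followed the same order. The brighter of its 2 probes, on chromosome 2 from 152029060 to 152029119 (mm8, minus strand), had intensities of 65.0, 114 and 87.0 in the control, at 35 and at 70 nmol. Its scaled levels of -2.05, -0.85 and -1.30 gave differences from the control of 1.20 ± 0.23 and 0.75 ± 0.24. The dimmer probe lies on the same strand from 152029730 to 152029789 and was not well above background in the control. It was at least 2.72-fold higher at 35 nmol and at least 2.42-fold higher at 70 nmol. These bounds set the bright level against the lowest level well above background on the control array, -3.65. Both Trib3 probes therefore had their lowest signal in the control and their highest at 35 nmol, although between the doses the probes differed by -0.45 ± 0.22 and -0.17 ± 0.29. At 35 nmol Trib3 held rank 92 from the top and at 70 nmol rank 403.

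Asns, the enzyme that makes asparagine from aspartate and glutamine, was above the control by similar amounts at both doses. Its intensity was 494 in the control, 829 at 35 nmol and 770.1 at 70 nmol, from a probe on chromosome 6 from 7625194 to 7625253 (mm8, minus strand). The scaled levels were 0.88, 2.01 and 1.84. The difference from the control was 1.13 ± 0.20 at 35 nmol and 0.97 ± 0.20 at 70 nmol, just above and just below 2-fold. The levels at the 2 doses differed by -0.17 ± 0.20, less than the scanner error. Asns held rank 108 at 35 nmol and rank 223 at 70 nmol.

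These 3 calls depended on the treatment of background and scale. With normexp background correction the differences of Chac1, Trib3 and Asns at 35 nmol were 0.84, 0.67 and 0.93, and none reached 2-fold. Scaled on spike-in RNA they were 1.03, 0.78 and 0.71, so only Chac1 passed. The direction was the same under all alternatives run for these genes.

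**Figure D2:**
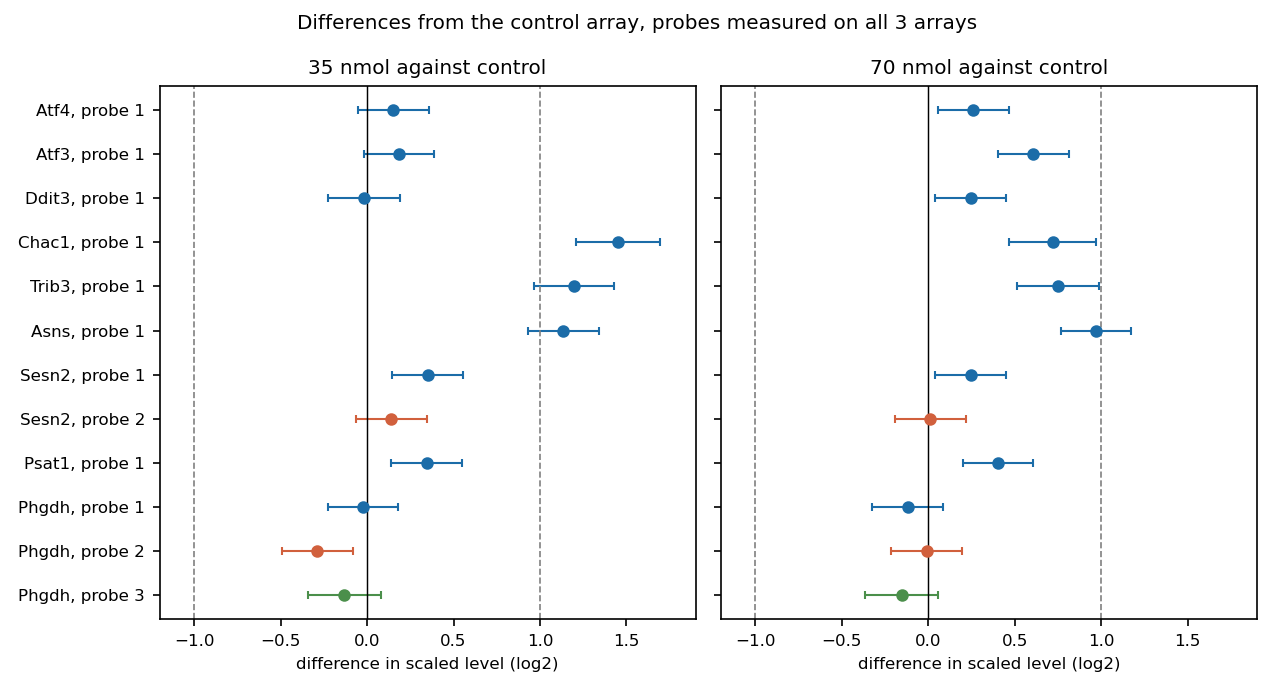
Difference in scaled level (log2) from the control array at 35 nmol (left) and 70 nmol (right) for the 12 probes measured on all 3 arrays, with the scanner error as bars; dashed lines mark 2-fold and colours tell the probes of a gene apart. Chac1, Trib3 and Asns lie past 2-fold at 35 nmol, and Asns at 0.97 is the nearest to it at 70 nmol.

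The upstream sequences of the genes that stood highest are shown because Atf4 and its C/EBP partners bind a composite element, the C/EBP-ATF response element, which was searched for as TGATGNAA on both strands in the 250 bases before each annotated start. Sequences are RefSeq's for the C57BL/6J reference, build GRCm38.p6, and not those of Swiss albino mice. All 10 genes had at least 1 promoter in the table, and Psat1 had 2. Capitals mark the element, written as its reverse complement where it lies on the opposite strand. The first 3 are the whole 250 bases upstream of Chac1 (chr2:119350992-119351241, plus strand), Asns (chr6:7693210-7693459, minus strand) and Trib3 (chr2:152344061-152344310, minus strand, no match). The last 2 are 60-base stretches around the matches of Atf3 (chr1:191183410-191183469, minus strand) and Slc7a11 (chr3:50443637-50443696, minus strand).
Chac1: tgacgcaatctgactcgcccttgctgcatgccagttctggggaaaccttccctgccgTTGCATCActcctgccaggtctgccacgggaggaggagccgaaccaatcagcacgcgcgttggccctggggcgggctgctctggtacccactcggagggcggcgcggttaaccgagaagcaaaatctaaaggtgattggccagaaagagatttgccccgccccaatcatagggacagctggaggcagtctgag
Asns: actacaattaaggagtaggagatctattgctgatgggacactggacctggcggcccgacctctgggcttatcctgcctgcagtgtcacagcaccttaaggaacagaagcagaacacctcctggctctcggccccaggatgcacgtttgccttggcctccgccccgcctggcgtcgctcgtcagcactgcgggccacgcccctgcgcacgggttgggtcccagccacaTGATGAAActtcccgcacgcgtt
Trib3: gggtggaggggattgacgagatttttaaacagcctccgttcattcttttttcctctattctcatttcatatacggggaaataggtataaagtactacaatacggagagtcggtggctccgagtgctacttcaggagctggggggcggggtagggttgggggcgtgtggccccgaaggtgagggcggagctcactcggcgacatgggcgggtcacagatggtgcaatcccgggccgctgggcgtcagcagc
Atf3: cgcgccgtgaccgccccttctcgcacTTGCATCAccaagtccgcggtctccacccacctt
Slc7a11: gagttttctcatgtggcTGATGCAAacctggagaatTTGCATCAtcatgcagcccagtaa

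The element was found upstream of 4 of the 10 genes, namely Atf3, Chac1, Asns and Slc7a11, and in 3.45% of the 32851 promoters of the same length in the table. In Asns it starts 23 bases before the annotated start and in Chac1 it begins at base -193. Atf3 holds it at base -110. Slc7a11 holds it at bases -66 and -47, on opposite strands. Chac1 and Asns, 2 of the 3 genes past 2-fold at 35 nmol, hold the element in this window, and Trib3 does not. Atf3 holds it and differed by 0.19 at that dose. The antioxidant response element of the oxidant-sensing factor NRF2, searched for as TGACNNNGC, was found upstream of Asns, Sesn2 and Phgdh and in 10.2% of all promoters. The cyclic AMP response element TGACGTCA was in none of the 10 windows and in 1.55% of all promoters. The motifs do not overlap one another at any match in these genes. A match is a description of letters, not a bound site.

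**Figure D3:**
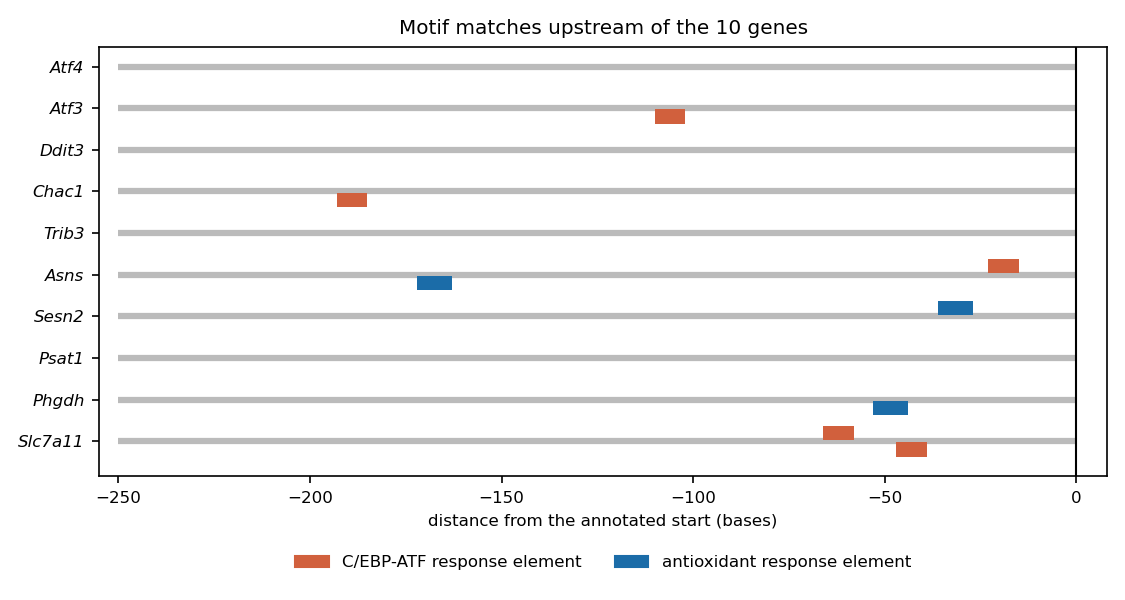
Matches to the C/EBP-ATF response element and the antioxidant response element in the 250 bases upstream of the annotated start (x axis, bases; 0 is the start) of each of the 10 genes; boxes above a line are on the strand of the gene and boxes below it on the opposite strand. Atf3, Chac1, Asns and Slc7a11 hold the first element, and Slc7a11 holds it at 2 places. Both promoters of Psat1 lack a match and share a line.

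The transcription factors of the set differed by less. Atf4 itself had intensities of 496, 422 and 473 in the control, at 35 and at 70 nmol (chromosome 15, 80083904 to 80083963, mm8, plus strand). Its scaled levels of 0.88, 1.03 and 1.14 gave differences from the control of 0.15 ± 0.21 and 0.26 ± 0.20, which scaling on spike-in RNA turned to -0.27 and -0.10. The Atf4 transcript thus differed from the control by less than the scanner error at 35 nmol and by little more than it at 70 nmol. Atf3, a stress-induced factor that represses inflammatory genes in macrophages, had the largest difference at 70 nmol among the 3 factors. Its intensities were 1600.3, 1392 and 1942 (chromosome 1, 192871283 to 192871342, minus strand). Its levels of 2.57, 2.76 and 3.18 placed it 0.19 ± 0.20 above the control at 35 nmol (-0.23 with spike-in scaling) and 0.61 ± 0.20 above it at 70 nmol. Between the doses Atf3 differed by 0.42 ± 0.20, and it was highest at 70 nmol, unlike Chac1, Trib3 and Asns.

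Ddit3 encodes CHOP, a factor that promotes cell death when stress persists and that joins Atf4 at Chac1 and Trib3. Its intensities were 334, 252 and 315, from a probe whose genomic span on chromosome 10 runs from 126698411 to 126698714 (mm8, plus strand). The levels were 0.31, 0.29 and 0.55. Ddit3 differed from the control by -0.02 ± 0.21 at 35 nmol, the dose at which Chac1 and Trib3 were highest, where the sign depended on scaling (0.00020 on the median of detected probes). At 70 nmol it differed by 0.24 ± 0.21, or -0.12 with spike-in scaling.

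Sesn2, sestrin 2, senses leucine and restrains the growth kinase mTORC1. Its brighter probe (chromosome 4, 131764135 to 131764194, mm8, minus strand) read 2136, 2083 and 2014, with scaled levels of 2.99, 3.34 and 3.23. The differences from the control were 0.35 ± 0.20 and 0.24 ± 0.20 for this probe, and 0.14 ± 0.21 and 0.010 ± 0.21 for the other (131765019 to 131765078). Both signs turned under spike-in scaling, to -0.069 and -0.12 for the brighter probe. The 2 Sesn2 probes gave the same order of the arrays, 35 nmol highest and the control lowest, over a range of at most 0.35.

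Serine synthesis is represented by Phgdh and Psat1, its first and second enzymes. Psat1 read 571, 554 and 601 (chromosome 19, 15972499 to 15972558, mm8, minus strand), with levels of 1.08, 1.43 and 1.49. It lay 0.34 ± 0.20 above the control at 35 nmol, against -0.076 with spike-in scaling, and 0.40 ± 0.20 above it at 70 nmol. Phgdh was measured by 3 probes on the minus strand of chromosome 3, and the brightest, from 98398580 to 98398639, read 2763, 2080.1 and 2024. Its levels were 3.36, 3.34 and 3.24. That probe differed from the control by -0.02 ± 0.20 (scanner error) at 35 nmol and -0.12 ± 0.20 at 70 nmol. Over the 3 probes the difference averaged -0.15 ± 0.13 (SD between probes) at 35 nmol and -0.095 ± 0.076 at 70 nmol. All 6 probe values were below 0, but only 1, -0.29 ± 0.20 at 35 nmol, exceeded its scanner error. The probe with that value overlaps the brightest probe, so the 2 are not independent. By its brightest probe Phgdh was the only 1 of the 9 measured genes with its highest level in the control, though within the scanner error. The neighbouring step of the same pathway, Psat1, had its lowest level there.

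Slc7a11, the cystine importer that supplies glutathione synthesis, could not be measured in any comparison. Of its 4 probes, 3 were not well above background on any array, with scaled levels between -5.89 and -5.56. The fourth (chromosome 3, 50462611 to 50462670, mm8, minus strand) had a processed intensity of 4.56 in the control, 4.13 at 35 nmol and 92.6 at 70 nmol, where it was well above background. Its raw mean signals were 57.9, 68.2 and 171 over local backgrounds of 33.5, 37 and 38. By this probe Slc7a11 was at least 5.41-fold higher at 70 nmol than in the control and at least 4.61-fold higher than at 35 nmol. That rests on 1 spot, since a probe 578 bases away on the same strand stayed at background at 70 nmol with a raw mean signal of 75.9. Over the whole array, 0.809% of probes were well above background at 70 nmol only.

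Counted over the set, 7 of 9 measured genes lay above the control at 35 nmol, where 58.3% of all measured genes did, and 8 of 9 at 70 nmol, against 56.2%. The median difference of the 9 genes was 0.34 at 35 nmol and 0.40 at 70 nmol, beside 0.039 and 0.038 over all measured genes. Scaled on spike-in RNA, the medians of the 9 genes were -0.076 and 0.042, beside -0.38 and -0.32 over all genes. Without Chac1, Trib3 and Asns, chosen for removal after their values were seen, the median of the other 6 was 0.17 and 0.25. The arrays at both doses were compared with the same control array. Of the 9 genes, 7 had their lowest level on the control array. The highest level was at 35 nmol in 4 (Chac1, Trib3, Asns and Sesn2) and at 70 nmol in 4 (Atf4, Atf3, Ddit3 and Psat1). Such orders were not counted over all genes. Between the doses Psat1, Atf4 and Sesn2 differed by 0.058, 0.11 and -0.11, less than their scanner errors. With spike-in scaling Atf4, Atf3, Sesn2 and Psat1 lay below the control at 35 nmol, so the control was no longer their lowest array.

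At 70 nmol against the control none of the 9 measured genes was 2-fold different, where 1.63% of 12541 measured genes lay that far above the control and 1.08% that far below, 2.71% in all. The largest differences were Asns at 0.97, Trib3 at 0.75, Chac1 at 0.72 and Atf3 at 0.61. Between the doses the 9 genes spread from -0.73 for Chac1 to 0.42 for Atf3. Their median was -0.098, and its sign turned under some alternatives. None was 2-fold different between the doses. Of 12388 genes, 0.92% were higher by this much at 70 nmol and 0.718% were lower, 1.64% in all. Of the 9, 4 were higher at 70 nmol by any amount, where 50.3% of all genes were. Of the 4 genes lower at 70 than at 35 nmol by the largest amounts, Chac1 and Trib3 exceeded the scanner error of the difference by their brightest probes. Asns and Sesn2 did not, and neither did the dimmer Trib3 probe, at -0.17 ± 0.29.

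Other known genes of the Atf4 response were taken from a list of 20, with none of the 10 genes in it. The list was chosen with earlier results of these data known, so its counts are a description. Of 14 measured at 35 nmol, 12 exceeded the all-gene median and 1 was at least 2-fold higher, with a list median of 0.28. That gene was Gdf15, a stress-induced cytokine that lowers appetite, whose levels of -2.69, -1.53 and -1.99 in the control, at 35 and at 70 nmol ran in the order of Chac1 and Trib3. Gdf15 differed from the control by 1.17 ± 0.26 and 0.70 ± 0.28. Ddit4, an inhibitor of mTORC1, differed by 0.55 and 0.39, and Atf5, a factor related to Atf4, by 0.38 and 0.31. Jdp2, an AP-1 repressor, differed by 0.33 and 0.69, higher at 70 nmol as Atf3 was. Ppp1r15a, which encodes the subunit GADD34 that removes phosphate from eIF2, differed by 0.33 at 35 nmol and -0.28 at 70 nmol. At 70 nmol 9 of 13 measured genes lay above the median of all genes, with a list median of 0.19 and none 2-fold different. Spike-in scaling lowers every difference by the same -0.42 and -0.36, so that in this and the following lists positive differences smaller than these turn negative.

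Of the 10 serine, glycine and one-carbon enzymes, which include Phgdh and Psat1, 9 were measured and none was 2-fold different at either dose. Mthfd2, the mitochondrial folate enzyme known as an Atf4 target, differed by 0.51 at 35 nmol and 0.76 at 70 nmol. Mthfd1l, which acts beside it in mitochondria, differed by 0.48 and 0.56, and Shmt1 by 0.42 and 0.61, with another Shmt1 probe at 0.32 and 0.33. The list median was 0.34 at 35 nmol and 0.11 at 70 nmol. Among 17 amino acid transporters, Slc7a11 included, 12 were measured at 35 nmol and none was 2-fold different. The glycine transporter Slc6a9 differed by 0.72 and 0.67, whereas the arginine transporter Slc7a2 differed by 0.033 and -0.59. The medians of that list were 0.020 and 0.15.

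All 20 cytosolic tRNA synthetases were measured, and none was 2-fold different at either dose. Their medians of 0.050 at 35 nmol and 0.066 at 70 nmol lay beside 0.039 and 0.038 over all genes. Wars, which charges tryptophan and is also induced by interferon, differed by 0.37 and 0.51, but by 0.23 and 0.13 on its other probe. Aars, for alanine, differed by 0.31 and 0.45, with another probe at 0.24 and 0.49. Rars, for arginine, differed by -0.56 and -0.87 and was dim, at -3.17 at 70 nmol, near the limit of -3.26 for a signal well above background. The upstream eIF2 list held 17 measured genes, none 2-fold different, with medians of 0.057 and 0.029. Of the kinases, Eif2ak2, the interferon-induced sensor of viral RNA, differed by -0.00071 at 35 nmol and 0.63 at 70 nmol. Eif2ak3, the sensor in the endoplasmic reticulum, differed by -0.01 and -0.11, and Eif2ak4, the amino acid sensor, by -0.06 and -0.30.

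The endoplasmic reticulum list held chaperones, which are induced mainly through Atf6 and Xbp1, with some degradation factors and Xbp1 itself. Most of its genes lay on the other side of the median of all genes. Of 18 measured, 16 were below it at 35 nmol and 14 at 70 nmol, with list medians of -0.14 and -0.11 and none 2-fold different. Hspa5, the central chaperone BiP, differed by -0.28 and -0.02. Pdia4 differed by -0.11 and -0.46, Xbp1 by -0.17 and -0.46, Sdf2l1 by -0.07 and -0.42 and Pdia3 by -0.28 and -0.35. The 9 measured genes of the set had medians of 0.34 and 0.40, but that set was drawn up with its values known. Whether that gap between the lists exceeds chance was not tested.

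**Figure D4:**
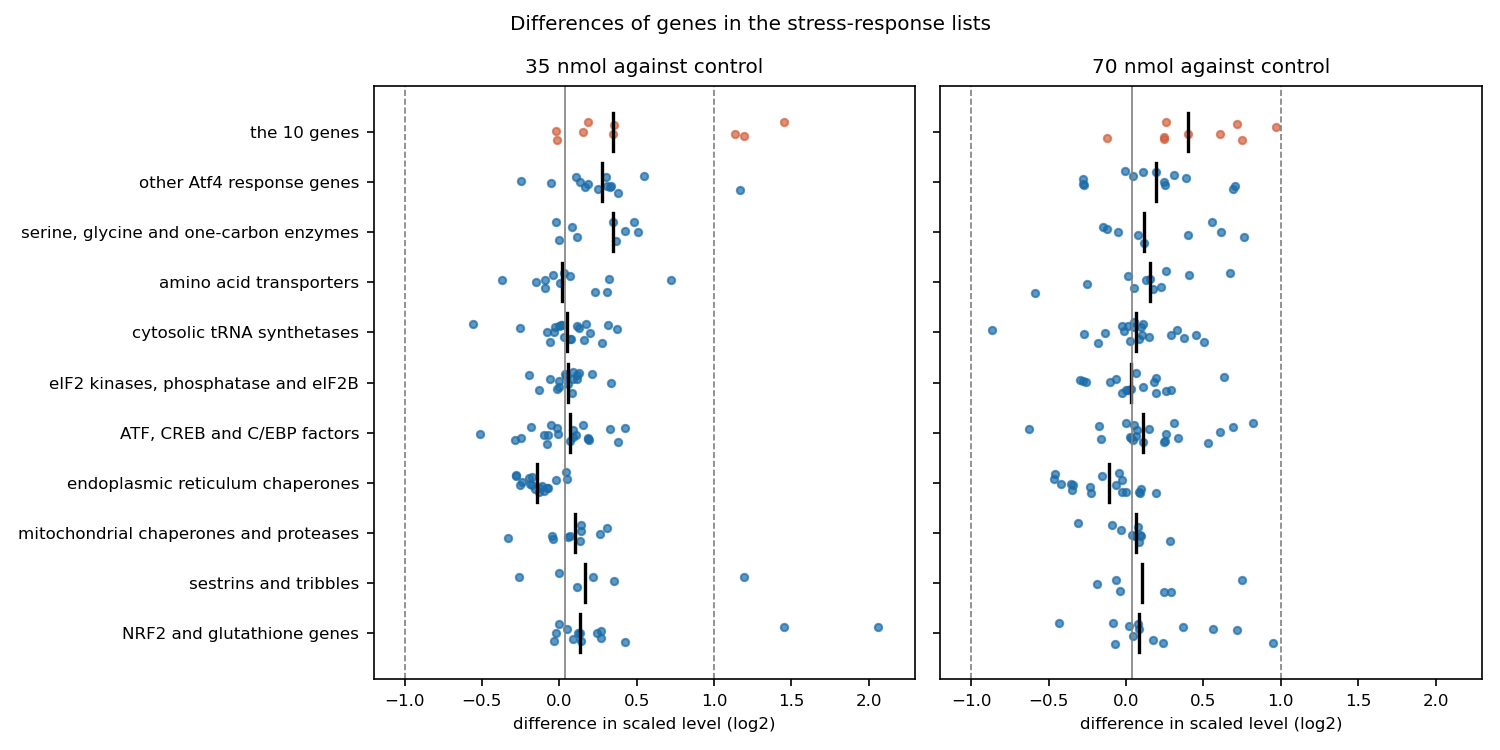
Difference in scaled level (log2) from the control at 35 nmol (left) and 70 nmol (right), 1 point per measured gene, for the 10 genes and the 10 lists of stress-response genes; black bars are list medians, the grey line is the median of all measured genes and dashed lines mark 2-fold. Some genes stand in 2 or more rows. The row of endoplasmic reticulum chaperones, which includes Xbp1, has medians of -0.14 and -0.11, and the 10 genes 0.34 and 0.40.

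Of 21 measured ATF, CREB and C/EBP factors none was 2-fold different at either dose. Batf3 differed by 0.42 at 35 nmol and 0.82 at 70 nmol and Nfil3 by -0.51 and -0.63. Mitochondrial chaperones and proteases, 10 measured, had medians of 0.10 and 0.066, with the mitochondrial Hsp70, Hspa9, at 0.31 and 0.28 (0.14 and 0.06 on its other probe) and the protease Oma1, which signals mitochondrial stress to eIF2, at -0.33 and -0.31. The relatives of Trib3 and Sesn2 did not reach 2-fold: Trib1 differed by 0.22 and 0.29 and Trib2 by -0.26 and -0.07. In the list of NRF2 and glutathione genes, which shares Chac1 and Slc7a11 with the set, the other enzyme of the Chac1 family, Chac2, differed by -0.02 and -0.08. Hmox1 differed by 0.27 and 0.95. Gsta3, a glutathione transferase abundant in liver, differed by 2.06 at 35 nmol and was not well above background at 70 nmol.

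By a rule of smallest distance between the pairs of differences from the control (35 and 70 nmol), searched over 7519 of the 12327 genes measured on the 3 arrays, the genes nearest to Trib3 were the metallothionein Mt2 (distance 0.046 on the log2 scale) and the chitinase-like Chil3 (0.11) and Chil4 (0.18). Nearest to Chac1 were Nxpe5 (0.24), Chil3 (0.27) and Mt2 (0.28), and nearest to Asns were Trim55 (0.049), Ffar2 (0.13) and Exoc3l4 (0.18). Mt2 differed from the control by 1.18 and 0.79. The search took only genes named through RefSeq whose level reached, on at least 1 array, the median of probes well above background there. Dimmer genes were not searched. Gdf15, the only 1 of them looked up, and after its values were seen, lay 0.056 from Trib3. How many other unsearched genes lay as near was not counted. The distance is also smaller than the scanner errors of Gdf15, 0.26 and 0.28. All these pairs share the control array, and with 3 arrays a likeness is a description only.

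Markers of other cells differed between the arrays, and fewer cells of a type cannot be told apart from less RNA per cell. Sums of linear scaled levels over the markers well above background are given in the order control, 35 and 70 nmol. The 10 macrophage markers were all well above background on every array and summed to 689, 766 and 701. Without Lyz2, saturated on all 3 arrays, they summed to 455, 458 and 404. At 70 nmol 2 of 9 measured macrophage markers were at least 2-fold higher than in the control, the scavenging receptors Mrc1 (1.59) and Cd163 (1.15), while Adgre1, which encodes F4/80, differed by -0.51. Of 15 hepatocyte markers, 12, 14 and 3 were well above background, summing to 92.5, 147 and 49.1, with Ttr below on all arrays. Trf, transferrin, carried most of each sum, and without it the sums were 20.7, 64.9 and 3.07. The difference of Alb, albumin, was 1.56 at the lower dose and -6.09 at the higher, and Apoa2, Fabp1 and Rbp4 were not well above background at 70 nmol. Erythroid markers, with 4 well above background on each array, summed to 67.0, 11.6 and 35.3. Neutrophil markers, 6 of 10 on each array and without Camp, Ngp, Ltf and Elane, summed to 7.56, 4.93 and 13.0. Those sums followed S100a9, without which they were 2.44, 2.77 and 2.61. At 35 and 70 nmol Lcn2 differed from the control by -1.46 and -1.29 and Cxcr2 by -2.07 and -1.39. Retnlg differed by 1.98 and 1.03, and S100a9 by -1.24 and 1.02. Of the 6 measured neutrophil markers, 1 was at least 2-fold higher and 3 lower at 35 nmol. At 70 nmol 3 were higher by this much and 2 lower. Fibroblast markers, 4, 4 and 6 of 6, summed to 9.52, 10.8 and 32.7, and Lum and Pdgfra were above background at 70 nmol only. Mast cell markers, 7 of 8 and without Ms4a2, summed to 35.0, 23.0 and 13.7. B cell markers, 8 of 8, summed to 276, 265 and 216, and T and NK cell markers, 7, 7 and 6 of 8 and without Cd4, to 14.9, 15.1 and 16.2.

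From highest to lowest, the hepatocyte sum ran in the order 35 nmol, control, 70 nmol, and the erythroid sum in the order control, 70 nmol, 35 nmol. Chac1, Trib3 and Asns ran in the order 35 nmol, 70 nmol, control. At 70 nmol 12 of 15 hepatocyte markers were not well above background, and Chac1, Trib3 and Asns lay 0.72, 0.75 and 0.97 above the control. The part of other cell types in the differences of the 10 genes was not tested.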

How the data were processed

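Per the file headers, the authors read the arrays with Agilent Feature Extraction 10.5.1.1 with spatial and multiplicative detrending switched on, and gave probe positions on build mm8. From the deposited scanner output, the intensity columns taken here were processed signal and its error, plus mean and local background signal. The value table deposited by the authors is on a log2 scale: a column was the log2 processed signal less a constant, 8.00 in the control, 7.61 at 35 nmol and 7.67 at 70 nmol, to within 0.01 for at least 99.8% of probes well above background, which settles its scale and direction and shows no centring of genes. Its columns had medians of -3.60, -3.74 and -3.78.

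Here the log2 processed signal was scaled on the 75th percentile of the 43379 spots of each array that are not controls. Flagged outlier spots were left out and spots of a probe averaged. Of 41174 probes, 24375 were named by accession through RefSeq (GRCm38.p6), 6301 by symbol, 2426 by synonym, and 8072 kept the file's name. A gene took the value of its brightest probe, leaving aside probes below background throughout. For a bound, the dim side was the probe's own level or the lowest level passing the background flag, whichever was higher.

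No test was possible with single arrays, whose number sets the precision. The members and the 10 function and 8 cell type lists, with 241 of 245 entries on the array (members included), were chosen with earlier results of these data known. Genes named were the 10 members, per list at most 4 genes, those that differed most at 1 of the doses, and the 3 nearest patterns to Chac1, Trib3 and Asns. Named outside this rule, after their values were seen, were Hspa5, Eif2ak3, Chac2, Trf, Lyz2, the markers given as not above background, and the genes with the C/EBP-ATF element under other observations. As alternatives, background was corrected by normexp (offset 50), arrays were normalised by quantiles or cyclic loess or scaled on the median detected probe or on 4 spike-in probes, and the deposited table was used, as were looser and stricter filters on dim probes, the mean over probes, and thresholds of 1.5-fold and 3-fold. The steps were tested on simulated data. R 4.3.3 with limma 3.58.1, Python 3.11.15, numpy 2.4.6, pandas 2.3.3 and matplotlib 3.10.9 were used.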

Additional observations from a re-analysis of the deposited data

How the results depend on the processing

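At 35 nmol, 0 of the 9 genes were at least 2-fold different with normexp background correction and 0 at a threshold of 3-fold, against 3 in the report; 1 remained with spike-in scaling (Chac1) and 1 with the stricter filter on dim probes (Asns), which left 7 genes measured. At a threshold of 1.5-fold, 4 of the 9 genes passed at 70 nmol (Atf3, Chac1, Trib3 and Asns), where 1176 of all 12541 measured genes did. Between the doses 1 passed (Chac1, lower at 70 nmol), where 808 of all 12388 did. Spike-in scaling moved the median difference of the 9 genes from 0.34 to -0.076 at 35 nmol and from 0.40 to 0.042 at 70 nmol, by the same shift for every gene. The other alternatives left these counts as they were and moved the medians by less than the scanner error of a single gene. The stricter filter lowered the median at 35 nmol to 0.19. Between the doses the median of -0.098 turned to 0.058 with the stricter filter and to 0.053 with the mean over probes, so its sign was not stable. The normexp setting started from mean and local background signal in place of processed signal, and added an offset of 50 to every spot. It thus changed more than the background step. How much each of these changes took from the differences was not tested.

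Over all genes, counts at least 2-fold different at 35 nmol, at 70 nmol and between doses were 181 of 12733, 340 of 12541 and 203 of 12388. With normexp they were 65 of 12731, 128 of 12540 and 59 of 12388. The looser filter gave 1118 of 17557, 1361 of 17188 and 1047 of 16808. The stricter filter gave 51 of 7968, 141 of 7977 and 69 of 7632. At 1.5-fold they were 622, 1176 and 808, at 3-fold 63, 71 and 40, and with spike-in scaling 322, 487 and 207. Chac1 and Trib3 were dim in the control, at -2.10 and -2.05 against a background limit of -3.65, so their differences are less certain in size than that of Asns.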

Other observations

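Beyond the 10 genes, measured genes with the C/EBP-ATF response element in the 250 bases upstream of a RefSeq start were described as a group. At 35 nmol 6 of 224 such genes (2.68%) were at least 2-fold higher than in the control, against 108 of 8907 genes (1.21%) whose promoters lack it, and 0 of 224 were at least 2-fold lower, against 24 (0.269%). The 6 were Rnase2a, an eosinophil-type ribonuclease (2.35), the retinol carrier Rbp4 (2.12), Chac1 (1.45), the vitamin D carrier Gc (1.25), Serpinf1 (1.18) and Asns (1.13). Without the 10 genes the share was 4 of 221 (1.81%). Rbp4 and Gc are transcribed mainly in liver, and the sum of hepatocyte markers, Rbp4 among them, was highest on that array. The part of liver RNA in these differences was not tested. The median difference was 0.056 with the element and 0.047 without it.

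At 70 nmol 6 of 217 genes with the element (2.76%) were at least 2-fold higher, against 134 of 8764 (1.53%). Another 4 (1.84%) were at least 2-fold lower, against 83 (0.947%). None of the 10 genes was among them. The 6 higher were Rab3il1 (1.64), Fabp3 (1.48), Rnase2a (1.42), Il20rb (1.42), Clec4b1 (1.38) and Slamf9 (1.26), and Rnase2a was in both groups of 6. The 4 lower were Phactr1 (-1.06), Slco2a1 (-1.30), Oosp1 (-1.46) and Aqp9 (-1.47). These genes were named after their values were seen, and no test was run on the shares.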
